A study of Mus musculus with 11 samples.

Results

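The feedback genes of cytokine signalling described here are Socs1, Socs2, Cish, Pim1, Pim2, Stat5a, Stat5b, Bcl3 and Myc. They were chosen by name, and every probe that the platform annotation pairs with one of these symbols was taken, which gave 9 of 19057 named genes and 14 of the 45281 probes of a mouse Illumina bead array. The RNA came from TCRβ+CD4+ T cells of the colon lamina propria. WT and Il23r-/- naive CD4 T cells, both C57BL/6, had been given together to Rag1-/- mice, which have no T or B cells of their own, and were sorted apart by congenic markers once colitis had developed. Il23r-/- cells lack the receptor chain that binds IL-23, so the comparison of 6 WT with 5 Il23r-/- samples asks which transcripts depend on that receptor when both genotypes share an inflamed colon. All samples therefore had the Rag1-/- host and colitis in common. The labels used here give no age for the mice. They leave unsaid whether each sample is a mouse of its own or a pool, so the p-values speak only for the scatter of these samples, part of which may be technical.

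Cytokine receptors signal through Janus kinases (JAKs), which phosphorylate STAT transcription factors. STAT5A and STAT5B act mainly downstream of IL-2, IL-7 and related cytokines in T cells, whereas the IL-23 receptor works mainly through JAK2, TYK2 and STAT3. STATs induce their own inhibitors, the SOCS proteins and CIS (encoded by Cish), which bind receptors or JAKs and limit further signalling. The same signals raise the Pim serine/threonine kinases, which promote survival and protein synthesis, BCL3, an atypical IκB protein that works with NF-κB p50 and p52, and MYC, a transcription factor that drives growth.

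Cish was the member with a pair of STAT-type motifs at its start, and its sequence is shown for that reason, beside that of Socs3, the inhibitor most closely tied to STAT3. Sequences are RefSeq promoter windows on GRCm38.p6, from 250 bases before to 50 bases after the start. The table held 10 windows for 7 of the 9 members, and not for Socs2 and Myc. The motif searched was TTCNNNGAA, which reads the same on both strands, and it is in capitals below. The Cish window is chr9:107296409-107296708 on the plus strand, and the Socs3 stretch of 61 bases is chr11:117969486-117969546 on the minus strand.
Cish: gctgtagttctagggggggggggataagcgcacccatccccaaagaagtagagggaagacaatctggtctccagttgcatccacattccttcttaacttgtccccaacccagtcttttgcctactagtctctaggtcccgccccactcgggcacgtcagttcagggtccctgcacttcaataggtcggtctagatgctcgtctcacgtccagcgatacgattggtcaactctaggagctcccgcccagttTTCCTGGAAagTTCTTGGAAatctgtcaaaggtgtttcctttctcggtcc
Socs3: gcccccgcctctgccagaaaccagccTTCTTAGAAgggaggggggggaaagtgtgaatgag
In Cish the first bases of the motifs, TTCCTGGAA and TTCTTGGAA, lay at positions 1 and 12 from the start, with 2 bases between them. In Socs3 the motif's first base lay at position -154. The motif was in 1 of the 10 member windows, that of Cish, and in 8.30% of all 32851 windows; 150 windows, or 0.457%, held at least 2. One of the Pim1 windows held the E-box CACGTG, a core motif bound by MYC and its partners, which was in 7.15% of all windows. These are matches of letters and not measured binding sites.

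None of the 9 genes passed the test for a difference between the genotypes. Of the 14 probes, 11 probes of 8 genes were above background often enough to be tested (detection p under 0.05 on at least 5 of the 11 arrays), and 0 of them reached a Benjamini-Hochberg adjusted p under 0.05 in limma, against 1.78% of all 18003 probes tested (1.17% higher and 0.611% lower in Il23r-/- cells). At an unadjusted p under 0.05 there were 3 of the 11 member probes (Bcl3, Pim2 and Socs2), or 27.3%, against 17.6% of all probes. No tested member probe separated the genotypes completely, against 3.21% of all probes. Taken by the brightest probe of each gene, 5 members were higher and 3 lower in the mean of Il23r-/- cells. The median difference of the 8 genes was 0.12 on the log2 scale, against 0.01 over the 9139 named genes tested, and the median size of the difference without its sign was 0.26 against 0.12. The signed median moved with the processing. Over all tested member probes it was 0.09, and 0.025 on the authors' log2 values. It was 0.026 without Il23r-/- sample 2 and 0.14 without Il23r-/- sample 1. With only probes above background on all 11 arrays, which drops Myc, it was -0.015. All levels below are normalized log2 intensities, all differences are Il23r-/- minus WT, errors are SD for levels and SE for differences, and intervals are at 95%. A level cannot be compared between different probes, since each binds with its own strength. In sorted bulk cells, fewer cells that express a gene and less RNA per cell cannot be told apart.

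Arrays had between 17309 and 18440 probes above background. The median raw intensity was 156.7 to 176.7 on 4 arrays (WT samples 1 and 2, Il23r-/- samples 1 and 2) and 107.6 to 131.7 on the other 7. Differences within these sets are given below for Socs2, Bcl3 and Stat5a (ILMN_2976188). For the rest they follow, brighter arrays first. They were 0.31 and 0.11 for Socs1, 0.15 and 0.06 for Cish, and 0.34 and 0.22 for Myc. Pim1 had -0.36 and -0.20 (ILMN_2702406) and -0.25 and -0.04 (ILMN_2932713). Pim2 had 0.56 and 0.38 (ILMN_1213136) and 0.18 and 0.33 (ILMN_1222824). Stat5a (ILMN_2976191) had -0.16 and -0.15. The Il23r probe was not above background on any of the 11 arrays, so it gave no check of the genotype labels. Of 10 T cell marker genes, 8 were measured and above background on every array, Cd3e, Cd3g, Cd3d and Cd4 among them. Of these, 0 passed the test, against 1.94% of the 9139 named genes taken by their brightest probe.

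**Figure D1:**
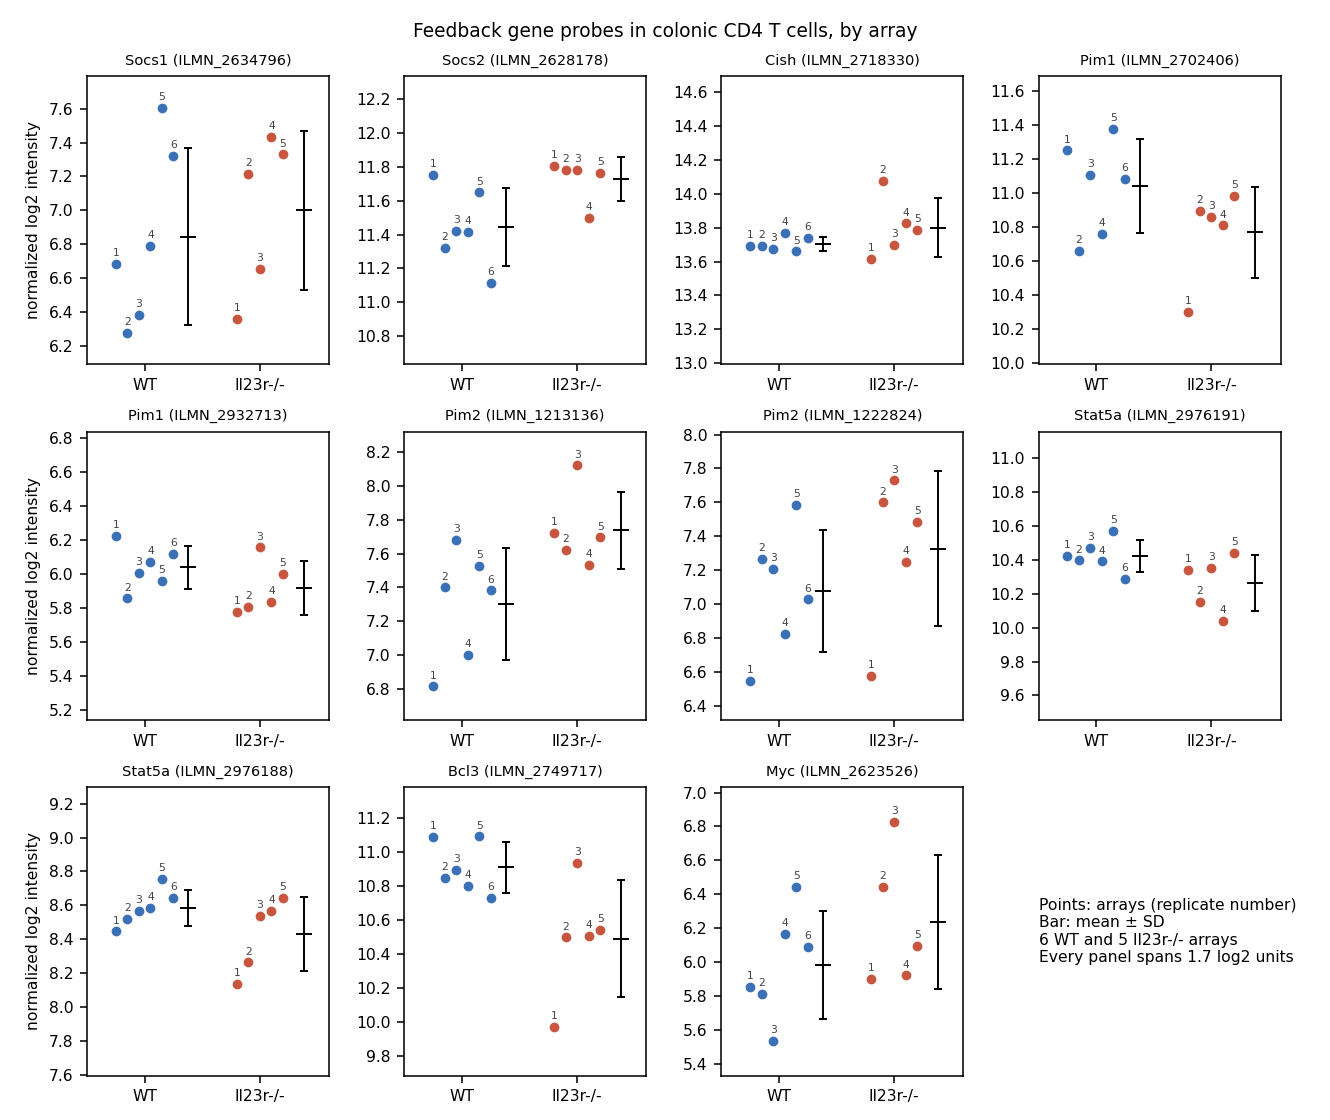
Normalized log2 intensity of the 11 tested probes of the feedback genes, by genotype. Each point is an array, with the mean and SD of 6 WT and 5 Il23r-/- samples, and each panel has its own level but spans the same number of log2 units. The genotypes overlap in every panel. On these normalized values Socs1 spreads widest and Cish narrowest.

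Cish, which encodes the inhibitor CIS, was strongly expressed and nearly constant. In WT samples it ran from 13.66 through a median of 13.69 to 13.77. The Il23r-/- samples 1 to 5 were at 13.61, 14.07, 13.70, 13.83 and 13.79. The lowest and the highest of all 11 values were both Il23r-/- samples, so the genotypes overlapped, with the WT values inside the range of the knockout values. WT samples averaged 13.71 ± 0.04 (SD, n = 6), and Il23r-/- samples averaged 13.80 ± 0.17 (SD, n = 5). The difference was 0.09 ± 0.09 (limma adjusted p = 0.601), and its interval allows folds from 0.938 to 1.21. It was 0.026 without Il23r-/- sample 2 and 0.14 without sample 1.

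Socs2 encodes an inhibitor known for restraining growth hormone and other STAT5 signals. On the probe ILMN_2628178 the WT samples ran from 11.11 through a median of 11.42 to 11.75. The Il23r-/- samples 1 to 5 were at 11.81, 11.78, 11.78, 11.50 and 11.76. Thus 4 of the 5 knockout values were above every WT value, and sample 4 was inside the WT range. This depended on the normalization: on the authors' log2 values Il23r-/- samples 3 and 5, at 3.60 and 3.63, were below WT sample 1, at 3.71. The difference was 0.28 ± 0.11, a fold of 1.21 with an interval of 1.02 to 1.44 (limma adjusted p = 0.223). It was 0.26 among the brighter arrays and 0.28 among the other 7. The other Socs2 probe, ILMN_1250749, was not above background on any of the 11 arrays and was not tested. Its values, which give no expression level, were 4.71 to 4.80 in WT and 4.84 to 4.99 in Il23r-/- samples.

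Socs1, which encodes an inhibitor that binds JAKs directly and curbs interferon and common-γ-chain cytokine signals, was the most variable member on these normalized values. Its probe was dim, with a raw intensity of 183.9 to 297.4. With no background correction the SE of its difference was 0.13 and not 0.25, beside 0.13 for Pim1 (ILMN_2702406) and 0.12 for Bcl3. The WT samples ran from 6.28 through a median of 6.74 to 7.61. The Il23r-/- samples 1 to 5 were at 6.36, 7.22, 6.65, 7.43 and 7.33. Both genotypes covered nearly the same range. The means were 6.84 ± 0.52 (SD, n = 6) and 7.00 ± 0.47 (SD, n = 5), a difference of 0.16 ± 0.25 (limma adjusted p = 0.791). The interval of the fold, 0.762 to 1.63, covers both a fall and a rise. Leaving out single samples moved the difference between 0.042 (without WT sample 2) and 0.31 (without Il23r-/- sample 1), and by over 1.5 times for every sample but WT samples 1 and 4.

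Pim2, a kinase that keeps growing lymphocytes alive, was the member with the largest positive difference. On ILMN_1213136 the WT samples ran from 6.82 through a median of 7.39 to 7.68, and the Il23r-/- samples 1 to 5 were at 7.72, 7.62, 8.12, 7.53 and 7.69. The values of samples 1, 3 and 5 lay above every WT value, the last by a narrow margin. The difference was 0.44 ± 0.16, a fold of 1.35 with an interval of 1.07 to 1.71 (limma adjusted p = 0.172). On ILMN_1222824 it was 0.25 ± 0.21 (adjusted p = 0.563), from 7.08 ± 0.36 (SD, n = 6) to 7.33 ± 0.46 (SD, n = 5). This second value was 0.14 without WT sample 1, 0.15 without Il23r-/- sample 3 and 0.43 without Il23r-/- sample 1.

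Pim1, the relative of Pim2 with the same kind of activity, differed the other way on both of its probes. On ILMN_2702406 the WT samples ran from 10.66 through a median of 11.09 to 11.38. The Il23r-/- samples 1 to 5 were at 10.30, 10.89, 10.86, 10.81 and 10.98, of which sample 1 was below every WT value and the other 4 were inside the WT range. The difference was -0.27 ± 0.15 (limma adjusted p = 0.367), with an interval of -0.59 to 0.05, and was -0.15 without Il23r-/- sample 1. On ILMN_2932713, a dim probe, it was -0.12 ± 0.09 (adjusted p = 0.521). Whether Pim1 and Pim2 differ in their response was not tested.

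Stat5a had 2 tested probes with nearly the same difference. On ILMN_2976191 the WT samples ran from 10.29 through a median of 10.41 to 10.57, and the Il23r-/- samples 1 to 5 were at 10.34, 10.15, 10.35, 10.04 and 10.44. Samples 2 and 4 lay below every WT value. The difference was -0.16 ± 0.09 (interval -0.35 to 0.03, limma adjusted p = 0.377). On ILMN_2976188 it was -0.16 ± 0.10 (limma adjusted p = 0.452), of which -0.28 was found within the brighter arrays and -0.05 within the other 7. The first probe's difference was -0.10 without Il23r-/- sample 4, and the second's was -0.082 without Il23r-/- sample 1. Stat5b, the neighbouring gene, was not measured: its probe ILMN_2746194 was not above background on any array, with a raw intensity of 82.0 to 145.4. On GRCm38.p6 Stat5b lies at chr11:100780731-100859004 and Stat5a at chr11:100859351-100885169, with 346 bases between them. A probe that is not above background does not show that the cells lack Stat5b.

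Bcl3 had the largest negative difference of the members. The WT samples ran from 10.73 through a median of 10.87 to 11.09, and the Il23r-/- samples 1 to 5 were at 9.97, 10.50, 10.94, 10.50 and 10.54. In all, 4 of the 5 knockout values were below every WT value, and sample 3 was among the WT values. The difference was -0.42 ± 0.14, which is 1.34 times more in WT with an interval of 1.08 to 1.65 (limma adjusted p = 0.149). Within the brighter arrays it was -0.73 and within the other 7 it was -0.22. Leaving out single samples moved it between -0.53 and -0.29, the smaller value without Il23r-/- sample 1, and the adjusted p stayed at 0.0842 or above.

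Myc, the transcription factor of cell growth, was near background. Its probe ILMN_2623526 was above background on 5 of 6 WT and 5 of 5 Il23r-/- arrays, and the other probe on 0 of 11. The WT samples ran from 5.54 through a median of 5.97 to 6.45, and the Il23r-/- samples 1 to 5 were at 5.90, 6.44, 6.83, 5.92 and 6.10. The difference was 0.25 ± 0.19 (limma adjusted p = 0.499), and only sample 3 exceeded every WT value. It was 0.11 without that sample and 0.16 without WT sample 3. The offset added to every intensity shrinks log2 differences of probes this dim. Other processing moved the Myc difference too. It was 0.11 with no background correction, 0.081 on the authors' log2 values and 0.31 with array weights. Without WT sample 5 it was 0.35.

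**Figure D2:**
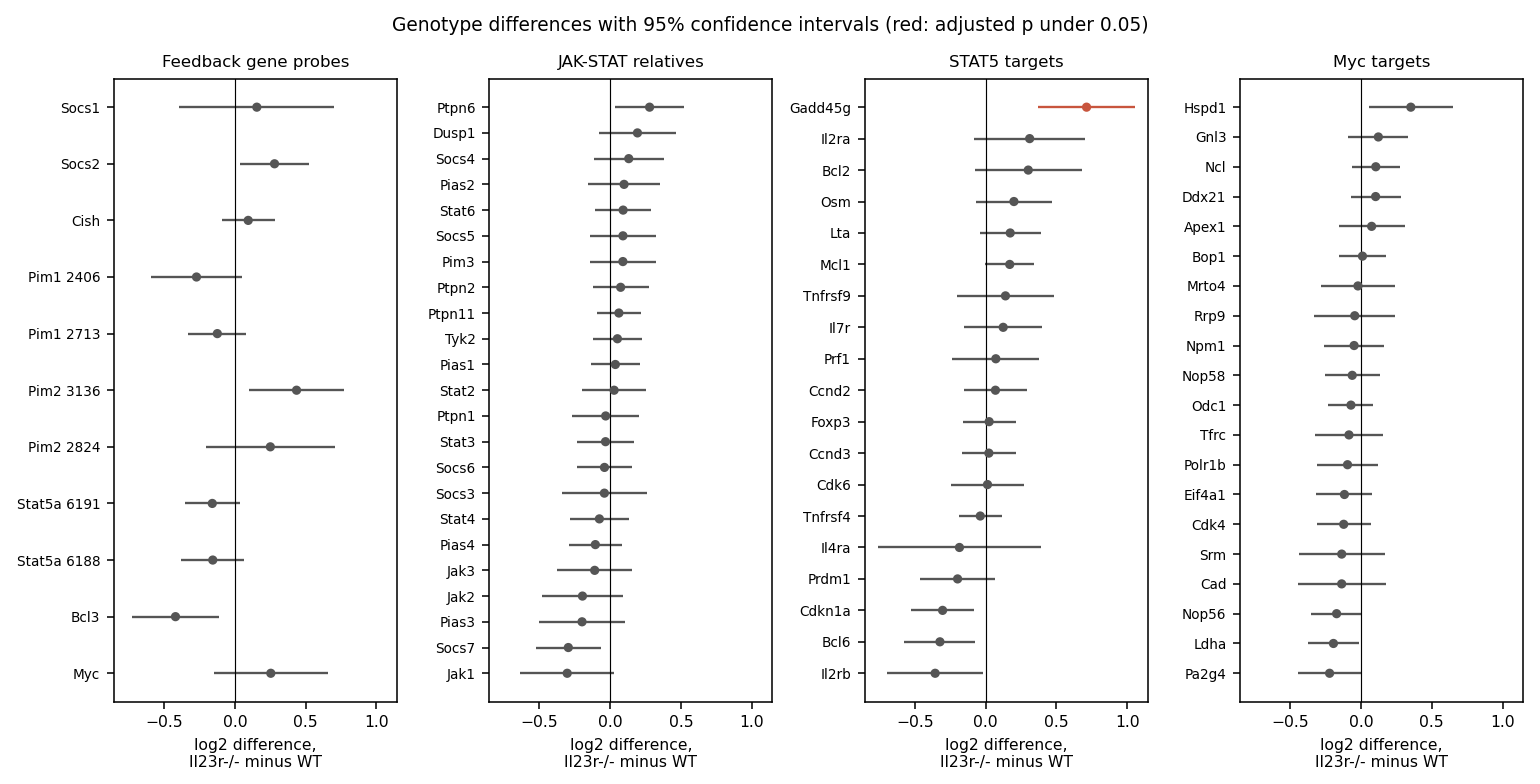
Difference between Il23r-/- and WT cells (log2) for the member probes and for every tested gene of the JAK-STAT relatives, STAT5 target and MYC target lists, with 95% intervals. Red marks an adjusted p under 0.05, which among these was reached by Gadd45g alone. Among the member probes, the intervals of Bcl3, Socs2 and Pim2 (ILMN_1213136) exclude 0 before adjustment, as do those of some list genes.

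Among the 11 tested probes, Il23r-/- sample 1 had the lowest knockout value on 8, both Pim1 probes among them, and sample 4 on the other 3. The same share over all tested probes was not computed, so this count cannot be called particular to the members. Over all 11 arrays the SD of a member, by its brightest probe, ran from 0.48 for Socs1 through 0.36 for Myc, 0.36 for Pim2, 0.33 for Bcl3, 0.30 for Pim1, 0.23 for Socs2 and 0.15 for Stat5a to 0.12 for Cish. SDs of neighbours in this order were not tested against each other. The order holds for these normalized values. With no background correction the SE of the difference was 0.13 for Socs1 and 0.09 for Myc, against 0.25 and 0.19 here. For Bcl3 it was 0.12 against 0.14. Members that have more than 1 tested probe gave a check on how much of the spread is shared: with genotype means removed, the probes of Pim2 correlated with r = 0.62 (rho = 0.63, permutation p = 0.0413, adjusted over 3 genes p = 0.124), which became 0.39 without the 2 arrays farthest from the median. For Pim1 r was 0.46 (rho = 0.45, adjusted p = 0.237) and for Stat5a 0.15 (rho = 0.28, adjusted p = 0.649), by the same permutation test. The Pim1 value was -0.01 without the 2 farthest arrays.

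**Figure D3:**
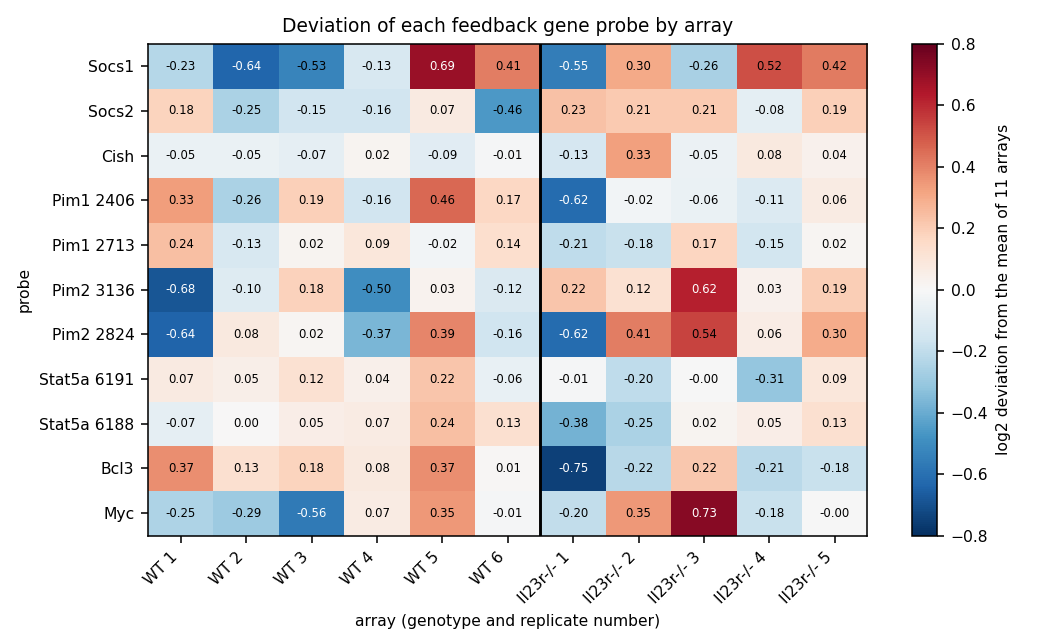
Deviation of each array from the mean of all 11 arrays (log2) for the 11 tested member probes, with arrays in columns. Genotype differences are therefore part of the deviations. Il23r-/- sample 1 is the lowest of the 5 knockout columns in 8 of the 11 rows.

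No pair of members passed the test for varying together. Of 28 pairs of the 8 genes across the 11 arrays, with genotype means removed, 0 had an adjusted permutation p under 0.05 and 3 had an unadjusted one. The 3 were Pim1 with Bcl3, Socs1 with Pim1, and Socs2 with Stat5a. The share among pairs of other genes was not computed. Pim1 and Bcl3 had r = 0.70 (adjusted p = 0.336; rho = 0.78, adjusted p = 0.0924). This was 0.48 without the 2 arrays farthest from the median and was 0.42 within the other 7 arrays. Socs1 and Pim1 had r = 0.67 (adjusted p = 0.359), which was 0.42 without the 2 farthest arrays and 0.47 within the other 7. Socs2 and Stat5a had r = 0.63 (adjusted p = 0.359), which was 0.23 without the 2 farthest arrays and 0.88 within the other 7. When the arrays were brought to equal medians and not quantile-normalized, this pair had r = 0.87 and an adjusted p of 0.0238. Cish and Stat5a, not among the 3 by r, had r = -0.55 (adjusted p = 0.417) and rho = -0.79 (adjusted p = 0.0924).

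The named genes whose levels followed the 3 most variable members most closely, over 11 arrays and out of 9131 genes, were Guca1b (r = 0.92), Bcas2 (0.90) and Slc16a6 (0.90) for Socs1. For Myc they were Prpf38b (r = 0.85), Atp13a1 (0.84) and Prickle1 (0.82). For Pim2 they were Nae1 (r = 0.90), Gm5785 (0.90) and Terf2 (0.86). These are the highest of many correlations over few arrays that share a normalization, and are given as a description. The choice of these 3 members also rests on that normalization.

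No measured JAK, STAT or other inhibitor of the pathway passed the test. Of 26 JAK-STAT relatives, 23 were tested and 0 passed, against 1.94% of all 9139 named genes taken by their brightest probe (1.27% higher and 0.667% lower). The difference was positive for 12 and negative for 11, with a median of 0.03. That median was -0.0042 without Il23r-/- sample 2, -0.0091 without sample 3, -0.032 with no detection filter and -0.0068 with each gene's probes averaged. At an unadjusted p under 0.05 there were 1 higher and 1 lower, against 18.0% of named genes. Stat3, the STAT that IL-23 activates most, differed by -0.03 ± 0.09 (limma adjusted p = 0.888), and its other probes by 0.09 and -0.08. Socs3, its feedback inhibitor and the gene with the motif shown above, averaged 12.80 ± 0.28 in the 6 WT samples and 12.75 ± 0.22 in the 5 Il23r-/- samples (SD), a difference of -0.04 ± 0.14 (limma adjusted p = 0.908). Jak2 differed by -0.20 (adjusted p = 0.460), Tyk2 by 0.05 (adjusted p = 0.787; other probes -0.13 and 0.02) and Pim3, the remaining Pim kinase, by 0.09 (adjusted p = 0.709). The smallest p-values of the list were those of Socs7, another SOCS box protein, at -0.30 ± 0.11 (adjusted p = 0.177), of the phosphatase gene Ptpn6 at 0.28 (adjusted p = 0.223), of Jak1 at -0.30 (adjusted p = 0.325) and of the phosphatase gene Dusp1 at 0.19 (adjusted p = 0.449). The probes of Jak1 disagreed in direction: ILMN_2552473, also above background on all 11 arrays, was at 0.23 (limma adjusted p = 0.356), and ILMN_1213278 at -0.07.

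Of 20 genes known as STAT5 targets, 19 were tested, of which 13 were higher and 6 lower, with a median of 0.07. Without Il23r-/- sample 2 the median was -0.00089, and with each gene's probes averaged it was 0.016. At an unadjusted p under 0.05 there were 1 higher and 3 lower, against 18.0% of named genes. The list was chosen with earlier results of these data known, so its count of passes is not independent of them. Of the 19, 1 passed, against the same 1.94% of named genes. This gene, Gadd45g, which encodes a stress-inducible regulator of p38 signalling, rose. The WT samples 1 to 6 were at 11.81, 11.68, 11.05, 11.46, 11.89 and 11.32, and the Il23r-/- samples 1 to 5 at 12.15, 12.17, 12.69, 12.00 and 12.24. Every knockout value was above every WT value. The difference was 0.71 ± 0.16, a fold of 1.64 with an interval of 1.29 to 2.08 (limma adjusted p = 0.0398), and the second probe gave 0.74 ± 0.17 (adjusted p = 0.039). Omitting WT sample 3, 4 or 6 or any Il23r-/- sample (8 of the 11 possible omissions) ended the call, with an adjusted p of up to 0.0934. It was also lost when no detection filter was applied (adjusted p = 0.0812). A block for replicate number ended the call as well, with a difference of 0.67 (limma adjusted p = 0.113). Next by p came Cdkn1a, the cell cycle inhibitor p21, at -0.30 ± 0.10 (adjusted p = 0.152), the transcriptional repressor gene Bcl6 at -0.32 (adjusted p = 0.177) and Il2rb, a chain of the IL-2 receptor, at -0.36 (adjusted p = 0.260).

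**Figure D4:**
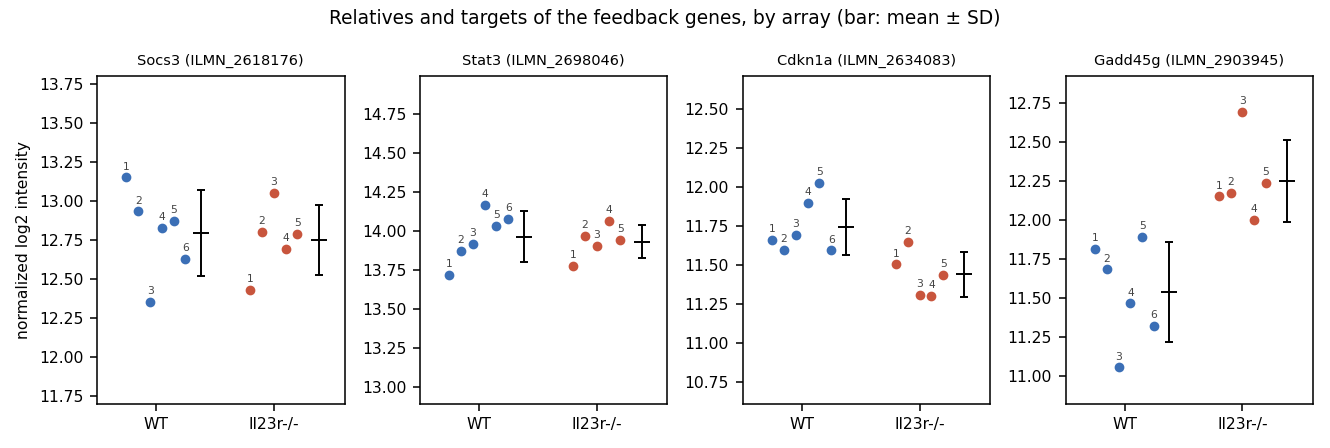
Normalized log2 intensity by array of Socs3, Stat3, Cdkn1a and Gadd45g in 6 WT and 5 Il23r-/- samples, with mean and SD. Socs3 and Stat3 overlap between the genotypes, and the 5 Il23r-/- values of Gadd45g, from 12.00 to 12.69, lie above all WT values.

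Of 25 known MYC targets 20 were tested and 0 passed, against 1.94% of named genes. In all, 6 were higher and 14 lower, with a median of -0.07, against 0.01 over all named genes. At an unadjusted p under 0.05, 1 was higher and 2 were lower, against 18.0% of named genes in both directions. The mitochondrial chaperonin gene Hspd1 was at 0.35 (limma adjusted p = 0.210), the lactate dehydrogenase gene Ldha at -0.19 (adjusted p = 0.247), Pa2g4, a gene of ribosome production and growth, at -0.22 (adjusted p = 0.282), and the nucleolar gene Nop56 at -0.17 (adjusted p = 0.299).

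Of 48 marker symbols of other cell types in 6 lists, 27 were tested and 0 passed, against 1.94% of named genes. The symbols include Emr1 and Igj, older names of the also listed Adgre1 and Jchain. Unadjusted, 4 had a p under 0.05, against 18.0% of named genes. Of the 21 alternatives, 7 took Cdh1 past the threshold (lowest adjusted p = 0.0216) and 5 took Klrd1 past it (lowest adjusted p = 0.0188), both higher in Il23r-/- samples. The summed level of the myeloid markers was 3657 to 12327 in WT and 5995 to 8450 in Il23r-/- samples, so the genotypes overlapped. Their most abundant members were Lyz1 (0.44), Cd74 (0.23) and H2-Aa (0.29), with log2 differences in brackets. The 10 tested myeloid markers ran from -0.79 to 0.51, with 8 higher and 2 lower. Natural killer markers, which activated T cells also express, had Nkg7 at 0.19, Klrd1 at 0.56 (limma adjusted p = 0.0718) and Eomes at -0.10. A second Eomes probe, ILMN_2570496, went the other way, at 0.44 (limma adjusted p = 0.457). Their summed level was 22214 to 27225 in WT and 25371 to 33422 in Il23r-/- samples, and Ncr1 was never above background. Among epithelial markers Lgals4 was at 0.11, Krt8 at -0.21 and Cdh1 at 0.82 (adjusted p = 0.071), while Epcam, Krt19 and Vil1 were never above background. A second Cdh1 probe, ILMN_1227162, above background on 5 arrays, was at 0.18 (limma adjusted p = 0.674). The 6 tested epithelial markers ran from -0.75 to 0.82, with 3 higher and 3 lower. Of the stromal and endothelial markers Vim was at -0.21, Pecam1 at -0.13 (other probes 0.08 and -0.07) and Dcn at -0.59, and Col1a1, Col1a2, Col3a1, Cdh5 and Kdr were never above background. The 4 tested stromal and endothelial markers ran from -0.59 to 0.29, with 1 higher and 3 lower. Cd79b, of B cells, was at 0.06 and Cd8b1 at -0.18. A second Cd8b1 probe, ILMN_2741169, above background on all 11 arrays, was at 0.52 (limma adjusted p = 0.192), while Cd8a was never above background. The part of these levels in the difference of Gadd45g or of any member was not tested.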

How the data were processed

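RNA of 11 samples (6 WT, 5 Il23r-/-) was amplified, labelled with biotin and read on a 1-colour Illumina bead array, per the labels' protocols, and GenomeStudio 1.6.0 is named in the submitters' processing notes. The deposited table holds the raw intensity of each probe, with no normalization, and a detection score as a fraction from 0 to 1, which the file headers call a p-value but which rises with intensity (Spearman rho at least 0.984 within each sample). Therefore 1 minus that score was taken as the detection p. A deposited value table holds the authors' log2 values, whose making no label or header describes; for every probe and sample they equalled the log2 intensity less the sample's 75th percentile to within 0.000339 (sample medians -1.11 to -0.86), with no background correction or centring of probes. Rows of both tables were joined by that match over all 11 samples, which gave the probe identifiers. Of 45281 probes, 34885 had 1 gene symbol in the platform annotation, 18 several and 10378 none.

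Intensities were background-corrected and quantile-normalized by the neqc function (limma 3.58.1, R 4.3.3, negative controls inferred from detection, offset 16). Probes with a detection p under 0.05 on at least 5 of 11 arrays were kept (18003), and limma's moderated test compared the genotypes, with Benjamini-Hochberg adjustment over all kept probes. A gene is given by its brightest kept probe. Correlations used permutation tests, two-sided, with 100000 resamples. The procedure was tested on simulated data. The number of arrays limits the precision. Alternatives were other normalizations, detection filters, offsets and variance models, array weights, a replicate block, averaging a gene's probes, leaving out each sample, and, added after seeing the data, a block for the 4 brightest arrays.

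The members and lists were chosen with earlier results of these data known. Named genes were all members, Socs3, Stat3, Jak2, Tyk2 and Pim3, the 4 smallest p-values in each list, the 3 most abundant measured markers of each other cell type, and the 3 genes most like each of the 3 most variable members; other markers are named by their detection. Arrays shared at most 0.338% identical probe intensities, and the 2 most alike differed by a median of 0.15 on the log2 scale, so none was counted as a duplicate.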

Additional observations from a re-analysis of the deposited data

Results flagged for a closer look

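In 4 of 84 groups of values 1 sample lay far from the others of its genotype, where about 1 in 20 groups would be picked out by chance. Socs2 in Il23r-/- sample 4 was at 11.50, with the other 4 knockout samples at 11.76 to 11.81. Pim1 (ILMN_2702406) in Il23r-/- sample 1 was at 10.30, with the others at 10.81 to 10.98. Il2rb in Il23r-/- sample 5 was at 10.40, with the others at 9.61 to 9.83. Dcn, a fibroblast gene, in Il23r-/- sample 3 was at 5.10, with the others at 6.41 to 6.63.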

How the results depend on the processing

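All 230 refits of the tested member probes, over 21 alternatives, kept the direction of the difference and stayed short of an adjusted p of 0.05, the lowest being 0.0686 for Bcl3 on the authors' log2 values. Over all probes 320 passed; without a detection filter 210 did, with the brightness block 491, and without single samples 159 to 513. Arrays scaled to equal medians gave 257, of which 77.4% were higher against 65.6%. The STAT5 target count of 1 became 0 without the detection filter, 0 with the replicate block, 2 with the mean of all probes (Foxp3 at 0.91 added) and 0 to 1 without single samples. With equal medians 1 member pair passed against 0. Directions turned for Eomes with the replicate block (0.0100), for Socs3 with array weights (0.0232), and without single samples for Socs3 (-0.130 to 0.0411), Stat3 (-0.0815 to 0.00816), Eomes (-0.28 to 0.0759) and Cd79b (-0.00496 to 0.13). The cause was not tested. Replicate numbers are shared by the genotypes, but the labels do not say what a number marks. Deviations of same-numbered samples correlated at -0.01 to 0.26, and 3 of 5 WT samples correlated best with their own number. These values do not settle whether same-numbered samples were paired. With the replicate block 264 probes passed and Gadd45g was at 0.67 (adjusted p = 0.113). Probes near background, such as those of Myc, Socs2 (ILMN_1250749) and Stat5b, limit what can be seen of those transcripts.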
